A study of Mus musculus with 4 samples.

Results

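The 10 genes described here encode enzymes that make, break down or remodel ceramide and sphingomyelin: the ceramidase genes Asah1 and Asah2, the sphingomyelinase genes Enpp7, Smpd1 and Smpd3, the sphingomyelin synthase genes Sgms1 and Sgms2, the ceramide synthase gene Cers2, the sphingosine kinase gene Sphk1 and the sphingosine 1-phosphate lyase gene Sgpl1. They were taken by symbol from a table of 51509 genes, and each matched 1 row. They were named as a set when earlier results of the same libraries were known, so their values in this contrast describe them and are no independent evidence of a direction. Expression was measured by RNA sequencing in mouse intestinal organoids, cultures of intestinal epithelium, from wild type C57BL/6 mice aged 8 to 12 weeks. Both groups had received 8 Gy of irradiation, and RNA was taken 36 hours later. The 2 SGC-CBP30 libraries came from organoids given an inhibitor of the bromodomains of the acetyltransferases CBP and p300, and the 2 vehicle libraries from organoids given vehicle. No unirradiated group was analysed here, so the contrast is inhibitor against vehicle within irradiated cultures. SGC-CBP30 replicate 2 reads SGC-CBP31 in its treatment label and was grouped by its title. The labels do not say whether replicates are separate cultures or animals, so p-values measure only the spread between these libraries, which may be technical.

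Sphingolipids are built on sphingosine, a long-chain amino alcohol. Joined to a fatty acid it becomes ceramide, and a phosphocholine head group turns ceramide into sphingomyelin, a main lipid of the outer plasma membrane. Sphingomyelinases remove the head group, ceramidases release sphingosine, sphingosine kinases phosphorylate it, and the lyase cleaves sphingosine 1-phosphate irreversibly. In the gut this chemistry has a digestive side as well: alkaline sphingomyelinase (Enpp7) and neutral ceramidase (Asah2) sit on the brush border of absorptive cells, where dietary sphingomyelin and ceramide are hydrolysed in the presence of bile salts. Inside cells, acid sphingomyelinase (Smpd1) and acid ceramidase (Asah1) act in lysosomes. Ceramide is also known as a lipid signal in irradiated and stressed cells.

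The sequences upstream of Enpp7 and Asah2 are shown because these genes had the lowest log2 fold changes of the set. Each is the 250 bases before a RefSeq start on GRCm38.p6, given 5′ to 3′ on the strand of the gene. Capitals mark matches, on either strand, to the motifs searched. The Enpp7 window is chr11:118987931-118988180 on the plus strand, and its RefSeq start lies 7 bases upstream of the deposited gene start. The Asah2 window is chr19:32103141-32103390 on the minus strand, and its RefSeq start lies 41671 bases upstream of the start of the deposited gene, which has a shorter model.
Enpp7: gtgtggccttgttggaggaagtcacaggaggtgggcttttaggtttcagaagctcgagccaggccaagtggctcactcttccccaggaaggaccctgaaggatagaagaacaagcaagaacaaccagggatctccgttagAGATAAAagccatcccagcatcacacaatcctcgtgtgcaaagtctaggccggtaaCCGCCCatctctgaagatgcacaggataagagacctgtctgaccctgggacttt
Asah2: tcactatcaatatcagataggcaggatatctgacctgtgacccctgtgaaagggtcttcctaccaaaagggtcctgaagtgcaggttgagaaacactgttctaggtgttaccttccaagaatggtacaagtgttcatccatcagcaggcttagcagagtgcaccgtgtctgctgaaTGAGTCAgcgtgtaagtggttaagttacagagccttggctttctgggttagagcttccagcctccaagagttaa
The Enpp7 window held AGATAA (the core bound by GATA factors), overlapped by TTTAT (bound by CDX factors) on the other strand, and 1 GGGCGG (GC box) on the other strand. These letters occurred in 9.99%, 37.3% and 32.7% of 32851 promoter windows of the same length. The Asah2 window held 1 TGANTCA (bound by AP-1), found in 6.75% of all windows. Neither held TATAAA, the core promoter box that 12.4% of windows hold. Nor did they hold CCAAT (33.8% of windows), the E-box CACGTG (6.02%) or the HNF4 site CAAAGTCCA (0.384%), which says only that these letters are not there. Of the 8 genes with a RefSeq window, 5 held GGGCGG.

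Of the 10 genes, 6 fell with SGC-CBP30, 2 rose and 2 did not pass (quasi-likelihood F test of edgeR over 14684 genes, with an adjusted p under 0.05). Over all tested genes 30.0% were called, 13.6% higher and 16.3% lower. The genes of the brush border enzymes Enpp7 and Asah2 fell most, followed by Sphk1, and the genes of the lysosomal acid enzymes Smpd1 and Asah1 were the 2 that rose. That pairing by compartment was made after the values were seen. In all 10 genes the SGC-CBP30 and vehicle libraries did not overlap, which held for 63.1% of all tested genes. The median log2 fold change was -0.39 for the set and 0.0096 for all tested genes. Only Enpp7, Asah2 and Sphk1 were at least 2-fold lower, as were 647 called genes (4.41%) of all tested. With 1 library left out, its group holds 1 library and spread comes from the other group alone. No conclusion is therefore drawn from calls in such fits, and all 10 genes kept their direction in them. In bulk samples such as these, fewer cells of a type and less RNA per cell cannot be told apart.

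**Figure D1:**
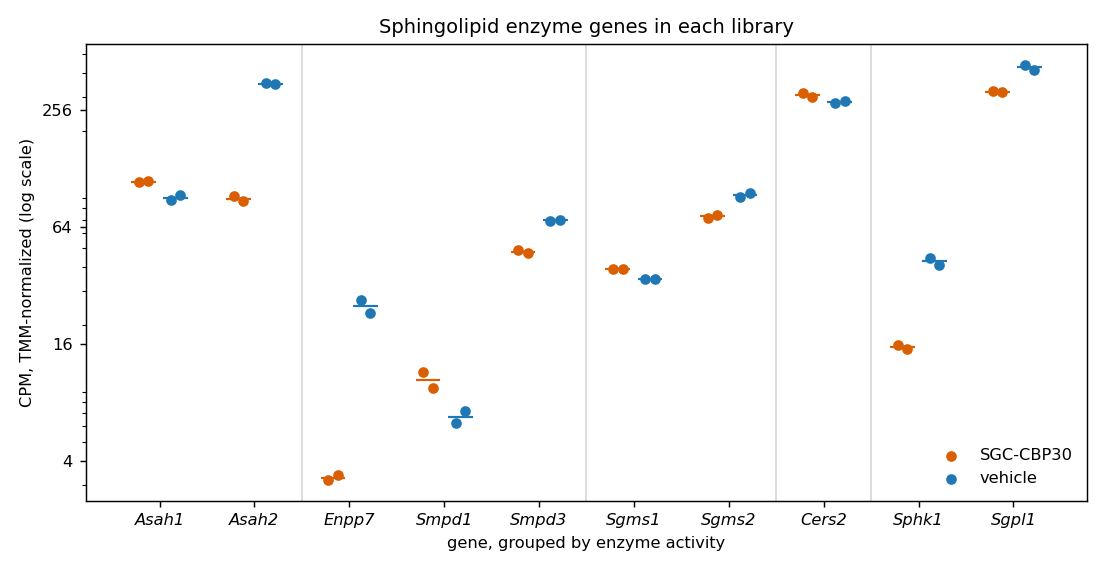
Normalized counts (CPM, counts scaled to library size, log axis) of each gene in the 2 SGC-CBP30 libraries (left of each pair) and the 2 vehicle libraries (right). Points are libraries, short lines are group means and grey lines separate enzyme activities. The replicates lie close together, and Enpp7, Asah2 and Sphk1 show the widest gaps between groups, with Enpp7 at 3.17 and 3.36 CPM in SGC-CBP30 libraries.

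The libraries held 16433117 to 18087250 counts, and 3 counts equal 0.166 to 0.183 CPM. Every one of the 10 genes passed the filter on low counts, the smallest count being 54, of Enpp7. The organoids carried epithelial transcripts: the 7 epithelial markers summed to 8984 and 8355 CPM in SGC-CBP30 libraries and 7122 and 7133 CPM in vehicle libraries. Fibroblast, immune and endothelial markers each summed to at most 5.49 CPM in any library. The immune markers summed to 2.12 and 1.59 CPM in SGC-CBP30 libraries and 5.49 and 4.01 CPM in vehicle libraries, and the macrophage receptor gene Csf1r fell. Their part in the results was not tested.

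Of the 3 sphingomyelinase genes, 2 fell and 1 rose. Enpp7 (ENSMUSG00000046697, chromosome 11, 118988188 to 118992841, plus strand) encodes alkaline sphingomyelinase, the brush border ectoenzyme that digests sphingomyelin. It had 3.17 and 3.36 CPM in SGC-CBP30 libraries, against 26.8 and 23.2 CPM in vehicle libraries. Both inhibitor libraries were far below both vehicle libraries, with raw counts of 54 and 59 against 474 and 370. The log2 fold change was -2.93 ± 0.17 (SE), 7.65-fold lower (edgeR adjusted p = 6.0e-13), and only 56 of the tested genes had a lower one. Smpd3 (ENSMUSG00000031906, chromosome 8, 106252548 to 106337988, minus strand) encodes neutral sphingomyelinase 2, which acts at the Golgi and plasma membrane. It had 48.8 and 46.9 CPM in SGC-CBP30 libraries and 69.1 and 69.5 CPM in vehicle libraries, and fell by 0.53 ± 0.08 on the log2 scale. Smpd1 (ENSMUSG00000037049, chromosome 7, 105554360 to 105558389, plus strand), the acid sphingomyelinase gene, had 11.5 and 9.45 CPM in SGC-CBP30 libraries and 6.23 and 7.21 CPM in vehicle libraries. It was higher in both inhibitor libraries, which differed from each other by more, relative to their mean, than those of any other of the 10 genes. Its log2 fold change was 0.64 ± 0.19 (edgeR adjusted p = 0.0104), and ranged from 0.49 to 0.77 with 1 library left out. It did not pass in DESeq2 (0.64, adjusted p = 0.0508).

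**Figure D2:**
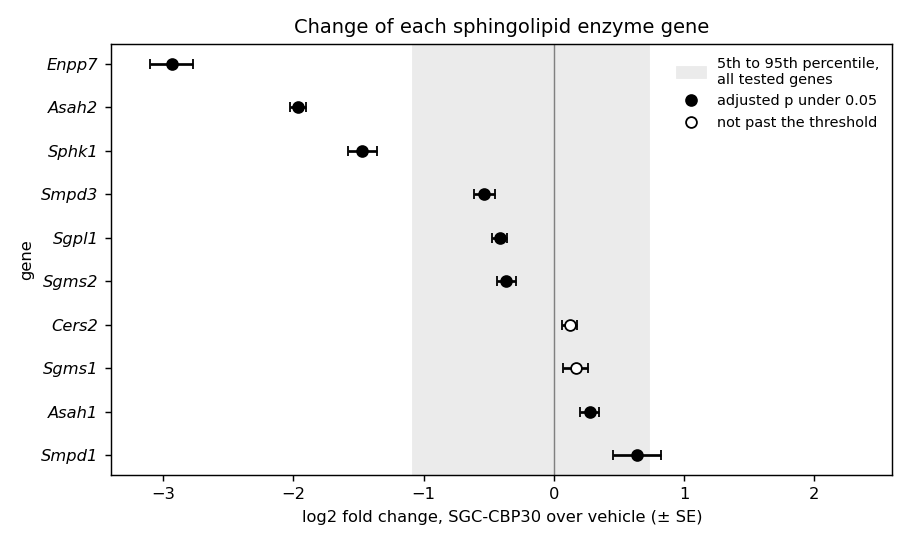
Log2 fold change with SGC-CBP30 relative to vehicle for each gene, with its standard error; filled points passed the threshold and open points did not. The grey band spans the 5th to 95th percentile of all tested genes, -1.08 to 0.73; Enpp7, Asah2 and Sphk1 lie below it and the other genes within it.

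The ceramidase genes moved in opposite directions. Asah2 (ENSMUSG00000024887, chromosome 19, 31984654 to 32061469, minus strand) encodes neutral ceramidase, which releases sphingosine from ceramide at the brush border. It had 92.3 and 87.5 CPM in SGC-CBP30 libraries, against 353 and 349 CPM in vehicle libraries. The replicates of a group differed by little beside that gap, and the log2 fold change was -1.97 ± 0.06 (SE), 3.91-fold lower (edgeR adjusted p = 1.9e-17). Asah1 (ENSMUSG00000031591, chromosome 8, 41340197 to 41374773, minus strand), the gene of lysosomal acid ceramidase, had 109 and 111 CPM in SGC-CBP30 libraries and 88.1 and 93.9 CPM in vehicle libraries. Its rise was small, 0.27 ± 0.07 on the log2 scale (edgeR adjusted p = 0.0047), and ranged from 0.23 to 0.32 with 1 library left out. Per length, Asah2 was the more abundant of the ceramidase transcripts in vehicle libraries and the less abundant in SGC-CBP30 libraries. FPKM, the deposited unit, divides a count by gene length and library size. The ratio of Asah2 to Asah1 in FPKM was 0.613 and 0.570 in SGC-CBP30 libraries and 2.90 and 2.69 in vehicle libraries. The FPKM of Asah2 rests on the deposited model of 4682 bases, whose span is shorter than that in the GENCODE M21 annotation.

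The sphingomyelin synthases transfer phosphocholine to ceramide, Sgms1 mainly in the Golgi and Sgms2 also at the plasma membrane. Sgms2 (ENSMUSG00000050931, chromosome 3, 131318985 to 131491411, minus strand) had 71.8 and 73.8 CPM in SGC-CBP30 libraries and 91.9 and 95.8 CPM in vehicle libraries, and fell by 0.37 ± 0.07 (SE) on the log2 scale. Sgms1 (ENSMUSG00000040451, chromosome 19, 32122727 to 32389714, minus strand) had 39.1 and 38.8 CPM in SGC-CBP30 libraries and 34.7 and 34.6 CPM in vehicle libraries. Its groups did not overlap, but its log2 fold change of 0.17 ± 0.10 did not reach the threshold (edgeR adjusted p = 0.199). Sgms1 lies upstream of Asah2 on the same strand, 61258 bases from the start of the deposited Asah2 gene and 14516 bases from its start in the GENCODE M21 annotation. Cers2 (ENSMUSG00000015714, chromosome 3, 95314791 to 95323599, plus strand), the gene of the synthase of very-long-chain ceramides, had 315 and 301 CPM in SGC-CBP30 libraries and 281 and 286 CPM in vehicle libraries. Its log2 fold change was 0.12 ± 0.06 (edgeR adjusted p = 0.133), and ranged from 0.085 to 0.15 with 1 library left out. It passed when scaled by library totals (0.19, edgeR adjusted p = 0.0122). Strand use in counting is not given in the sources used here. Cers2 overlaps Setdb1 by 75 bases and Smpd3 overlaps Prmt7 by 247 bases, each on the opposite strand, so reads there are of uncertain origin. Sgms1 overlaps 2700046G09Rik by 499 bases and Cers2 overlaps 6330562C20Rik by 337 bases, partners with 128 and 69 counts over all libraries. Other genes that overlap a member had at most 11 counts.

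The kinase gene Sphk1 and the lyase gene Sgpl1 both fell, while the other sphingosine kinase gene, Sphk2, which is not among the 10, did not pass. Sphk1 (ENSMUSG00000061878, chromosome 11, 116530925 to 116536674, plus strand) encodes 1 of the 2 kinases that form the signalling lipid sphingosine 1-phosphate. It had 15.8 and 15.0 CPM in SGC-CBP30 libraries, against 44.4 and 40.9 CPM in vehicle libraries, and fell by 1.47 ± 0.11 (SE) on the log2 scale, 2.77-fold lower (edgeR adjusted p = 1.2e-10). Sphk2, named after its values were seen, had 80.4 and 74.2 CPM in SGC-CBP30 libraries and 77.8 and 74.5 CPM in vehicle libraries, with a log2 fold change of 0.021 ± 0.077 (edgeR adjusted p = 0.875). Per length it was the more abundant kinase transcript in every library, with 19.2 and 17.7 FPKM in SGC-CBP30 libraries and 18.6 and 17.9 FPKM in vehicle libraries, where Sphk1 had 3.28 and 3.13 FPKM with SGC-CBP30 and 9.22 and 8.55 FPKM with vehicle. Sgpl1 (ENSMUSG00000020097, chromosome 10, 61098642 to 61147703, minus strand) encodes the lyase of the endoplasmic reticulum that cleaves sphingosine 1-phosphate. It had 322 and 319 CPM in SGC-CBP30 libraries and 441 and 415 CPM in vehicle libraries, and fell by 0.42 ± 0.06. The lyase transcript was more abundant than that of Sphk1 in every library: the ratio of Sgpl1 to Sphk1 in FPKM was 15.9 and 16.5 in SGC-CBP30 libraries and 7.72 and 7.88 in vehicle libraries.

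Levels per length spanned a wide range in both groups. In SGC-CBP30 libraries the order by mean FPKM was Cers2 (83.4 ± 2.71, SD, n = 2), Sgpl1 (51.9 ± 0.441), Asah1 (32.3 ± 0.437), Asah2 (19.1 ± 0.725), Sgms2 (11.6 ± 0.224), Smpd3 (9.10 ± 0.255), Sgms1 (3.76 ± 0.0230), Sphk1 (3.21 ± 0.108), Smpd1 (3.12 ± 0.425) and Enpp7 (2.18 ± 0.0864). Of neighbours in that order, only Sphk1 and Smpd1 overlapped between replicates. In vehicle libraries it was Cers2 (76.6 ± 1.27), Asah2 (74.6 ± 0.327), Sgpl1 (69.3 ± 2.69), Asah1 (26.7 ± 1.29), Enpp7 (16.7 ± 1.66), Sgms2 (15.0 ± 0.497), Smpd3 (13.2 ± 0.104), Sphk1 (8.89 ± 0.479), Sgms1 (3.35 ± 0.00409) and Smpd1 (2.00 ± 0.213), with no neighbours overlapping. Enpp7 was last in that order in SGC-CBP30 libraries and stood above Sgms2 in vehicle libraries. Among the sphingomyelinase transcripts, the ratio of Enpp7 to Smpd3 in FPKM was 0.228 and 0.251 in SGC-CBP30 libraries and 1.36 and 1.17 in vehicle libraries.

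**Figure D3:**
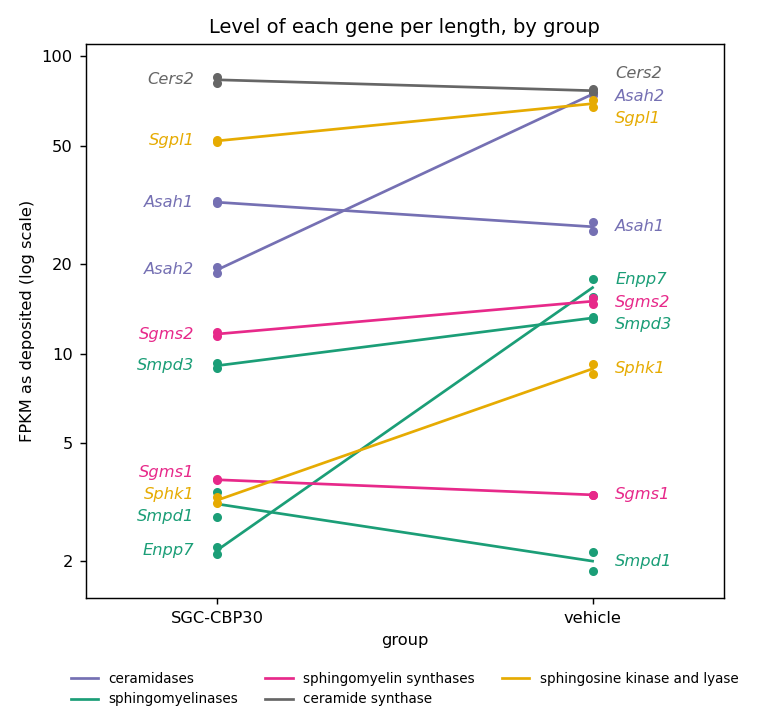
Deposited FPKM (log axis) of each gene in SGC-CBP30 libraries (left) and vehicle libraries (right). Points are libraries, lines join group means and colours give the enzyme activity. The lines of Asah2 and Asah1 cross, as do those of Asah2 and Sgpl1, of Sphk1 and Sgms1, and of Enpp7 with Sgms2, Smpd3, Sphk1, Sgms1 and Smpd1.

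Markers of absorptive enterocytes, the cells that carry Enpp7 and Asah2 on their brush border, also moved. Of 15 such markers 9 fell, 1 rose and 5 did not pass, with a median log2 fold change of -0.49. Their levels summed to 39660 and 37211 CPM in SGC-CBP30 libraries and 49668 and 49893 CPM in vehicle libraries, and none was at 0. The marker that fell most, the trehalase gene Treh, had a log2 fold change of -1.21, and the one that rose, the apolipoprotein gene Apoa4, had 0.43. The alkaline phosphatase gene Alpi, another brush border marker, had 0.094 and did not pass. The fall of Enpp7, Asah2 and Sphk1 on the log2 scale was thus greater than that of any of the 15 markers, a comparison of values that was not tested. Markers of other epithelial cells are given beside the 30.0% of all tested genes that were called. The shares called among Paneth, enteroendocrine and tuft cell markers lay near that value. Of 5 markers of crypt base stem cells 2 fell, 1 rose and 2 did not pass, and they summed to 199 and 209 CPM in SGC-CBP30 libraries and 338 and 306 CPM in vehicle libraries. Among them Olfm4 fell by 1.79 on the log2 scale, more than Sphk1 and any enterocyte marker, and Ascl2 by 0.98, while the stem cell receptor gene Lgr5 rose by 0.56. Of 6 Paneth cell markers 2 fell (Lyz1 and Ang4) and 4 did not pass, of 6 goblet cell markers 1 rose and 2 fell, and of 6 enteroendocrine markers 2 fell, Gcg by 0.74. Of 4 tested tuft cell markers 1, Trpm5, fell by 0.72. Of the 7 epithelial markers 3 rose, among them the keratin genes Krt8 by 0.49 and Krt18 by 0.59, and 1 fell. The part of cell type content in the results was not tested.

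Among the other genes of sphingolipid metabolism, listed by function, changes went both ways. Of 65 such genes in 6 lists, 54 were tested, 9 rose, 14 fell and 31 did not pass. The 42.6% called stand beside the 30.0% of all tested genes, and the median log2 fold change was -0.048. With library totals as the scale 12 rose and 10 fell, and in DESeq2 7 rose and 10 fell. Taken singly, 3 of the lists had a share called near that 30.0%. They were ceramide synthesis, ceramide transfer with other ceramidases, and other sphingomyelinases.

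Genes of sphingosine 1-phosphate turnover, export and reception held 10 tested genes, of which 3 rose and 5 fell. Spns2, the gene of a sphingosine 1-phosphate exporter, had 25.1 and 21.5 CPM in SGC-CBP30 libraries, against 61.3 and 60.0 CPM in vehicle libraries, and fell by 1.38 ± 0.10 (SE) on the log2 scale. Plpp1, a lipid phosphate phosphatase gene, fell by 0.87 ± 0.08. Of 6 tested genes of other sphingomyelinases and related phosphodiesterases, 1 rose, 1 fell and 4 did not pass. Smpdl3b, the gene of a membrane-anchored phosphodiesterase related to acid sphingomyelinase, fell by 1.32 ± 0.07, with 53.8 and 52.6 CPM in SGC-CBP30 libraries and 136 and 128 CPM in vehicle libraries. The mitochondrial sphingomyelinase gene Smpd5 was barely detected, with 25 and 17 counts in SGC-CBP30 libraries and 4 and 2 counts in vehicle libraries. It rose by 2.72 ± 0.69, and by 2.39 to 3.21 with 1 library left out. DESeq2 gave no adjusted p for it, and the stricter filter on counts left it out.

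Of 13 tested genes of ceramide synthesis 1 rose, 3 fell and 9 did not pass. Ormdl3, which encodes an inhibitor of serine palmitoyltransferase, the first enzyme of the pathway, fell by 0.44 ± 0.10 (SE) on the log2 scale. Its log2 fold change ranged from -0.63 to -0.27 with 1 library left out. The ceramide synthase gene Cers5 rose by 0.63 ± 0.14. Of 7 genes of ceramide transfer, phosphorylation and other ceramidases 2 fell and 5 did not pass. The alkaline ceramidase gene Acer1 fell by 1.98 ± 0.51, from few reads: 5 and 12 counts in SGC-CBP30 libraries, against 36 and 30 counts in vehicle libraries. Col4a3bp, the gene of the ceramide transfer protein CERT, fell by 0.24 ± 0.08. It did not pass with library totals (edgeR adjusted p = 0.142) or in DESeq2 (adjusted p = 0.0917). Its log2 fold change ranged from -0.40 to -0.0997 with 1 library left out.

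Of 8 tested genes of glycosphingolipid synthesis and transfer 1 rose, 2 fell and 5 did not pass. The lactosylceramide synthase genes parted: B4galt5 fell by 0.93 ± 0.07 (SE) on the log2 scale, while B4galt6 rose by 0.22 ± 0.07. The log2 fold change of B4galt6 ranged from 0.11 to 0.31 with 1 library left out. Of 10 genes of glycosphingolipid breakdown, mostly lysosomal, 3 rose, 1 fell and 6 did not pass, with a median of 0.15. Psap, the gene of the saposin precursor that supplies lysosomal activator proteins, rose by 0.37 ± 0.06, to 263 and 263 CPM in SGC-CBP30 libraries, against 210.0 and 196 CPM in vehicle libraries. Arsa, the gene of the sulfatide hydrolase arylsulfatase A, fell by 0.95 ± 0.12.

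**Figure D4:**
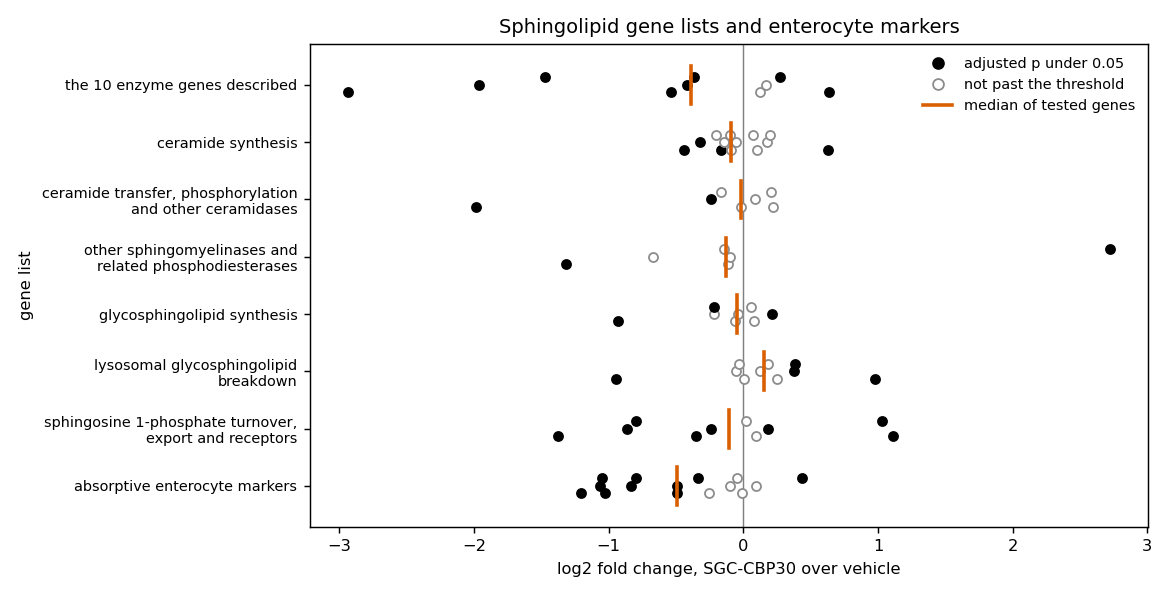
Log2 fold change with SGC-CBP30 relative to vehicle for the 10 enzyme genes, the tested genes of 6 further sphingolipid lists and 15 enterocyte markers. Filled points passed the threshold, open points did not, and bars are medians, from -0.49 for enterocyte markers to 0.15 for the mostly lysosomal list of glycosphingolipid breakdown.

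The genes whose pattern lay nearest to that of Enpp7 were sought by the Euclidean distance of log2 CPM over the 4 libraries, centred on the mean of each gene, among 9023 genes. They were the proton channel gene Otop3 at a distance of 0.181, the sodium-glucose cotransporter family gene Slc5a4b at 0.233, the adhesion receptor gene Adgrd1 at 0.236, the TRAIL gene Tnfsf10 at 0.25 and Slc5a4a at 0.36. Their log2 fold changes ran from -3.25 for Slc5a4a to -2.71 for Slc5a4b, and Otop3 had 7.58 and 8.77 CPM in SGC-CBP30 libraries and 57.9 and 56.7 CPM in vehicle libraries. With 4 libraries in 2 groups this measure mostly ranks genes by the size of their fold change. Slc5a4a and Slc5a4b are close copies, so their reads may be shared.

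In the authors' deposited table, 7 of the 10 genes had an adjusted p under 0.05, as did 11.4% of the 23932 genes to which that table gives one. Smpd1 was the one called here and not there, with a deposited log2 fold change of 0.64 and adjusted p of 0.0891.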

How the data were processed

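RNA sequencing counts of 4 libraries were analysed, 2 per group. The deposited table gave raw whole-number counts per gene and library, FPKM (the count divided by gene length and a scaled library total), a gene length, the authors' group means as a normalized signal, and a log2 fold change, p-value and adjusted p-value of SGC-CBP30 over vehicle from a test the authors do not name, per the file headers. HISAT2 2.0.5, featureCounts 1.5.0-p3, StringTie 1.3.3b and the build mm9 are listed, without roles, per the submitters' processing notes. The gene coordinates are nevertheless those of GRCm38: 98.5% of 51476 gene identifiers shared with GENCODE M21 had identical spans, and they are given here as GRCm38, 1-based. Asah2 and Enpp7 have other spans there, and the other 8 members the same. The table was held in part, and 25365 of the genes it lists have no count. It held 27 symbols turned into dates, restored by identifier.

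The test of the counts used edgeR 4.0.16 under R 4.3.3, with filterByExpr, TMM scaling, robust dispersions, the quasi-likelihood F test, Benjamini-Hochberg adjustment over 14684 genes and an adjusted p threshold of 0.05. The SE is the log2 fold change divided by the square root of F. The procedure was tested on simulated data. CPM are TMM-normalized. FPKM are used as deposited, for levels between genes only. Alternatives were library totals, DESeq2 size factors, DESeq2 1.42.0, other filters, a replicate block and leaving out each library.

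The members and lists were chosen with earlier results of these data known. Named are all members, the 2 called genes with the smallest p in each list (with none called, the top gene by p), the 5 genes nearest to the called member of largest change (mean log2 CPM 3 or more, no pseudogenes or clone names), and marker genes of a list described. Upstream sequences are from RefSeq, for 8 of 10 members.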

Additional observations from a re-analysis of the deposited data

How the results depend on the processing

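The direction of all 10 members held under every alternative run, and the count of lower members (6) held in each that kept all libraries. DESeq2 called 1244 genes higher and 1 member higher, and gave Smpd1 0.64 without a call. With library totals as the scale Cers2 was called at 0.19, and over all genes 2907 were higher and 1924 lower, against 2004 and 2397 with TMM. Leaving out 1 library at a time gave 2899 (without vehicle replicate 2) to 4557 genes changed, 1235 to 2104 of them higher. It gave 0 to 3 members higher, the 0 without vehicle replicate 1. Of other sphingolipid genes it gave 15 to 26 changed and 9 to 17 lower. In each of these fits 1 group held 1 library, and spread came from the other group alone. The counts of calls without 1 library thus depend on which group gave the spread. They cannot show how firm a call is, and no conclusion is drawn from them. In the same fits the log2 fold changes ranged from 0.23 to 0.32 for Asah1, 0.49 to 0.77 for Smpd1 and 0.085 to 0.15 for Cers2. None of the 12 named pathway genes changed sign in any alternative that gave it a value. Among fits of all libraries only Col4a3bp lost its call, with library totals and in DESeq2. DESeq2 gave no adjusted p for Smpd5, and the stricter filter on counts left out Smpd5 and Acer1. With a replicate block 4703 genes and 8 members were called. The deviations of same-numbered libraries correlated at 0.026 over 9427 genes, which gives no sign that the numbers pair the libraries. Depth limits Enpp7 and Smpd1 most among the members, whose lowest counts were 54 and 110, and of other named genes Smpd5, Acer1 and Csf1r, with at most 53 counts in any library.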
